A study of Rattus norvegicus with 35 samples.

Results

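The genes described here drive cells through mitosis, and all 9 were present on the RG-U34A array, with 12 probe-sets. They were taken as every probe-set whose single gene symbol is Kifc1, Plk4, Top2a, Racgap1, Cdc20, Cdk1, Pttg1, Ccnb1 or Plk1, out of 7006 probe-sets with a single symbol, which stand for 4736 genes. Top2a has 3 probe-sets, Ccnb1 has 2, and each of the other genes has 1. The genes were chosen by their changes after ionising radiation (IR) on these same arrays. All values of these genes after IR below are thus a description, with no test, and they support nothing on their own. Other genes were tested after IR. Changes after ultraviolet radiation (UV) and mechanical stress (MS) did not enter the choice and were tested. Control levels in the UV and MS experiments were also tested. They are not independent of the choice, since a fall after IR can be seen only from a control level above the floor.

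Expression was measured on 35 arrays of cells from ventricles of neonatal rat hearts, with no strain or transgene given in the labels. CM-enriched cultures, which hold cardiac myocytes (CM) and other heart cells, and cultures of fibroblasts (FB) were given 8.5 Gy of X-rays (IR), 10 J/m2 of UVC (UV) or 24 h of cyclic stretch (MS). RNA was isolated 24 h after irradiation or at the end of stretch, and the controls were sham-irradiated or not stretched. All cultures of the MS experiments, stretched or not, were grown on Flexcell plates coated with collagen I. After IR or UV, CM-enriched cultures were passed through elutriation, a separation by cell size, and the resulting CM-enriched fractions were arrayed. CM-enriched cultures after MS were not elutriated and held the smallest share of CM, which limits them as a model of CM. Fibroblasts were subcultured and grown to confluence, and were not elutriated. Both populations were put in low serum before treatment, horse serum for CM-enriched cultures and foetal bovine serum for fibroblasts. Each group has 3 arrays except the CM controls of UV, which have 2. Arrays of a treated sample and of the control that carries its experiment number form 17 pairs.

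Mitosis is started by Cdk1, a kinase that works only when bound to a cyclin such as cyclin B1 (Ccnb1). Polo-like kinases then act at centrosomes and kinetochores, and chromosome separation begins when the anaphase-promoting complex, activated by Cdc20, directs securin (Pttg1) and cyclin B1 to degradation. Transcripts of these genes accumulate late in the cell cycle and are low in cells that have left it. CM largely stop dividing soon after birth, whereas cardiac fibroblasts keep the capacity to divide. Many promoters of this class carry a cell cycle homology region (CHR, written TTTGAA) and CCAAT boxes, the motif bound by the factor NF-Y.

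Since the members were all lower after IR, their promoters were read from the RefSeq table of rat promoters (build GRCr8). Of the 9 genes, 8 were found there, and Racgap1 was not matched. The windows span 250 bases before and 50 bases after the annotated start. The sequences shown are the 100 bases before the start, 5′ to 3′ on the strand of the gene, for the genes whose motifs or responses are taken up below. Capitals mark a CHR or a CCAAT box on either strand, which reads TTCAAA or ATTGG when it lies on the reverse strand. The Kifc1 window is chr20:5000829-5000928 (plus strand), that of Top2a is chr10:84473094-84473193 (minus), that of Cdc20 is chr5:137255800-137255899 (minus), that of Ccnb1 is chr2:33655226-33655325 (minus) and that of Plk1 is chr1:186147558-186147657 (plus).
Kifc1: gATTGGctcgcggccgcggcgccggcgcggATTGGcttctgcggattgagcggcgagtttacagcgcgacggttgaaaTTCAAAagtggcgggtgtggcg
Top2a: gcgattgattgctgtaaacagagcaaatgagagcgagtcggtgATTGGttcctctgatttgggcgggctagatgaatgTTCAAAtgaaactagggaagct
Cdc20: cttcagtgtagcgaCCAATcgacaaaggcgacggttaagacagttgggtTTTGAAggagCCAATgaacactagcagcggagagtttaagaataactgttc
Ccnb1: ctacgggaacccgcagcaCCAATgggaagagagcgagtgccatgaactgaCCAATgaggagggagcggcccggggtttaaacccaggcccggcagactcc
Plk1: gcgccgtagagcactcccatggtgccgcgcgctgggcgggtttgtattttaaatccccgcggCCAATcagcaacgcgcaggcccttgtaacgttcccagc

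The CHR letters occurred in 7 of the 8 windows, all but that of Ccnb1, against 18.3% of 33469 rat promoter windows of the same length. CCAAT occurred in 7 of the 8, all but that of Plk4, against 37.5% of all windows. Both motifs occurred in 6 of the 8, and in 7.41% of all windows. Counted from the start, the CHR of Kifc1 and that of Top2a began at -22, each on the reverse strand, and the CHR of Cdc20 began at -51. The CHR of Plk1 began at 7 and thus lies beyond the printed stretch. Of the E2F site letters, neither TTTCCCGC (0.974% of all windows) nor TTTGGCGC (0.493%) was found in any of the 8 windows. All motifs were searched on both strands, no match in these windows overlapped another, and a match is a string of letters and not a bound site.

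**Figure D1:**
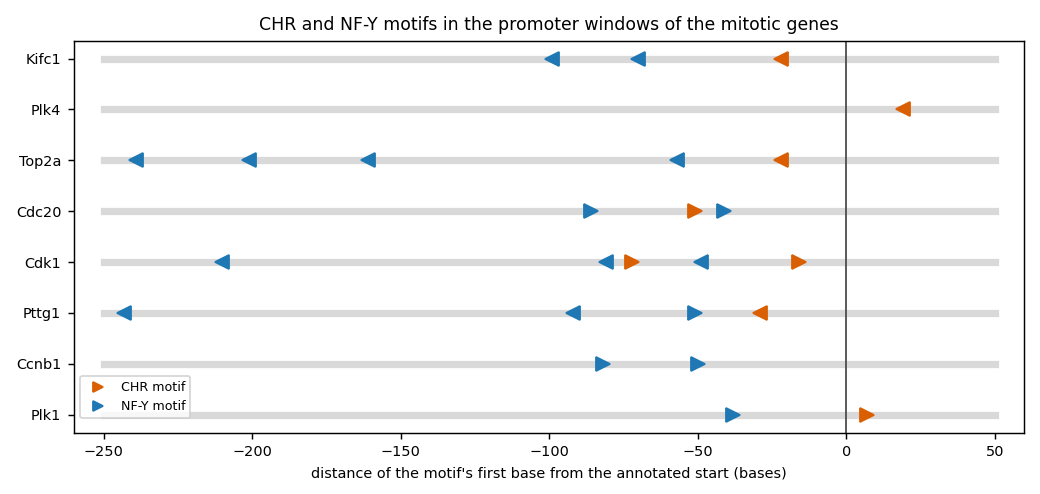
Distance in bases of each CHR motif (orange) and each CCAAT box (NF-Y motif, blue) from the annotated start of 8 mitotic genes; grey bars are the windows searched and arrowheads point along the strand that carries the motif. Most motifs lie within the 100 bases before the start, and the CHR of Plk1 and Plk4 lie after it.

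On the arrays, levels are given as normalised log2 intensities with a floor at 2.78, below which signals were not resolved. Levels of different probe-sets cannot be set against each other, since probe response differs. Fewer dividing cells and less RNA per cell cannot be told apart in these samples. The labelled populations were checked by the summed intensity of marker genes. The sum over 15 cardiomyocyte genes was 42673 to 71488 on CM arrays and 4047 to 29406 on FB arrays, so the populations were separate, while FB arrays also carried CM signal. The sum over 14 fibroblast genes was 14586 to 47317 on CM arrays and 37007 to 49853 on FB arrays, and these ranges overlap through the CM arrays of MS. Leukocyte genes summed to 159 to 519 on any array, with Cd8a at the floor on 33 arrays and Itgam on 27. The sums of 6 endothelial genes ran from 110 to 215 on FB arrays and from 232 to 2213 on CM arrays, and those of 5 smooth muscle genes from 3344 to 10812 over all arrays.

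All 12 probe-sets were lower after IR in CM-enriched fractions. Their changes ran from -0.86 (Plk1) to -3.56 (Kifc1) on the log2 scale, with a median of -1.83, while the median over all 8740 probe-sets was 0. In cultures of fibroblasts they ran from -0.14 (Kifc1) to -1.95 (Pttg1), with a median of -1.19, which was -0.63 with a higher floor (the 40th percentile of all values). Every CM array after IR lay below every CM control array for all 12 probe-sets, and the same was true of 4.11% of all probe-sets. In FB it was true of 10 of 12 (2.2% of all probe-sets), the exceptions being Kifc1 and Plk4. For background, 0.286% of all probe-sets were called higher and 0.446% lower after IR in CM at an adjusted p of 0.05 (limma), and 0.0343% higher and 0.0458% lower in FB. The members' values after IR chose them, so nothing is read from these counts.

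**Figure D2:**
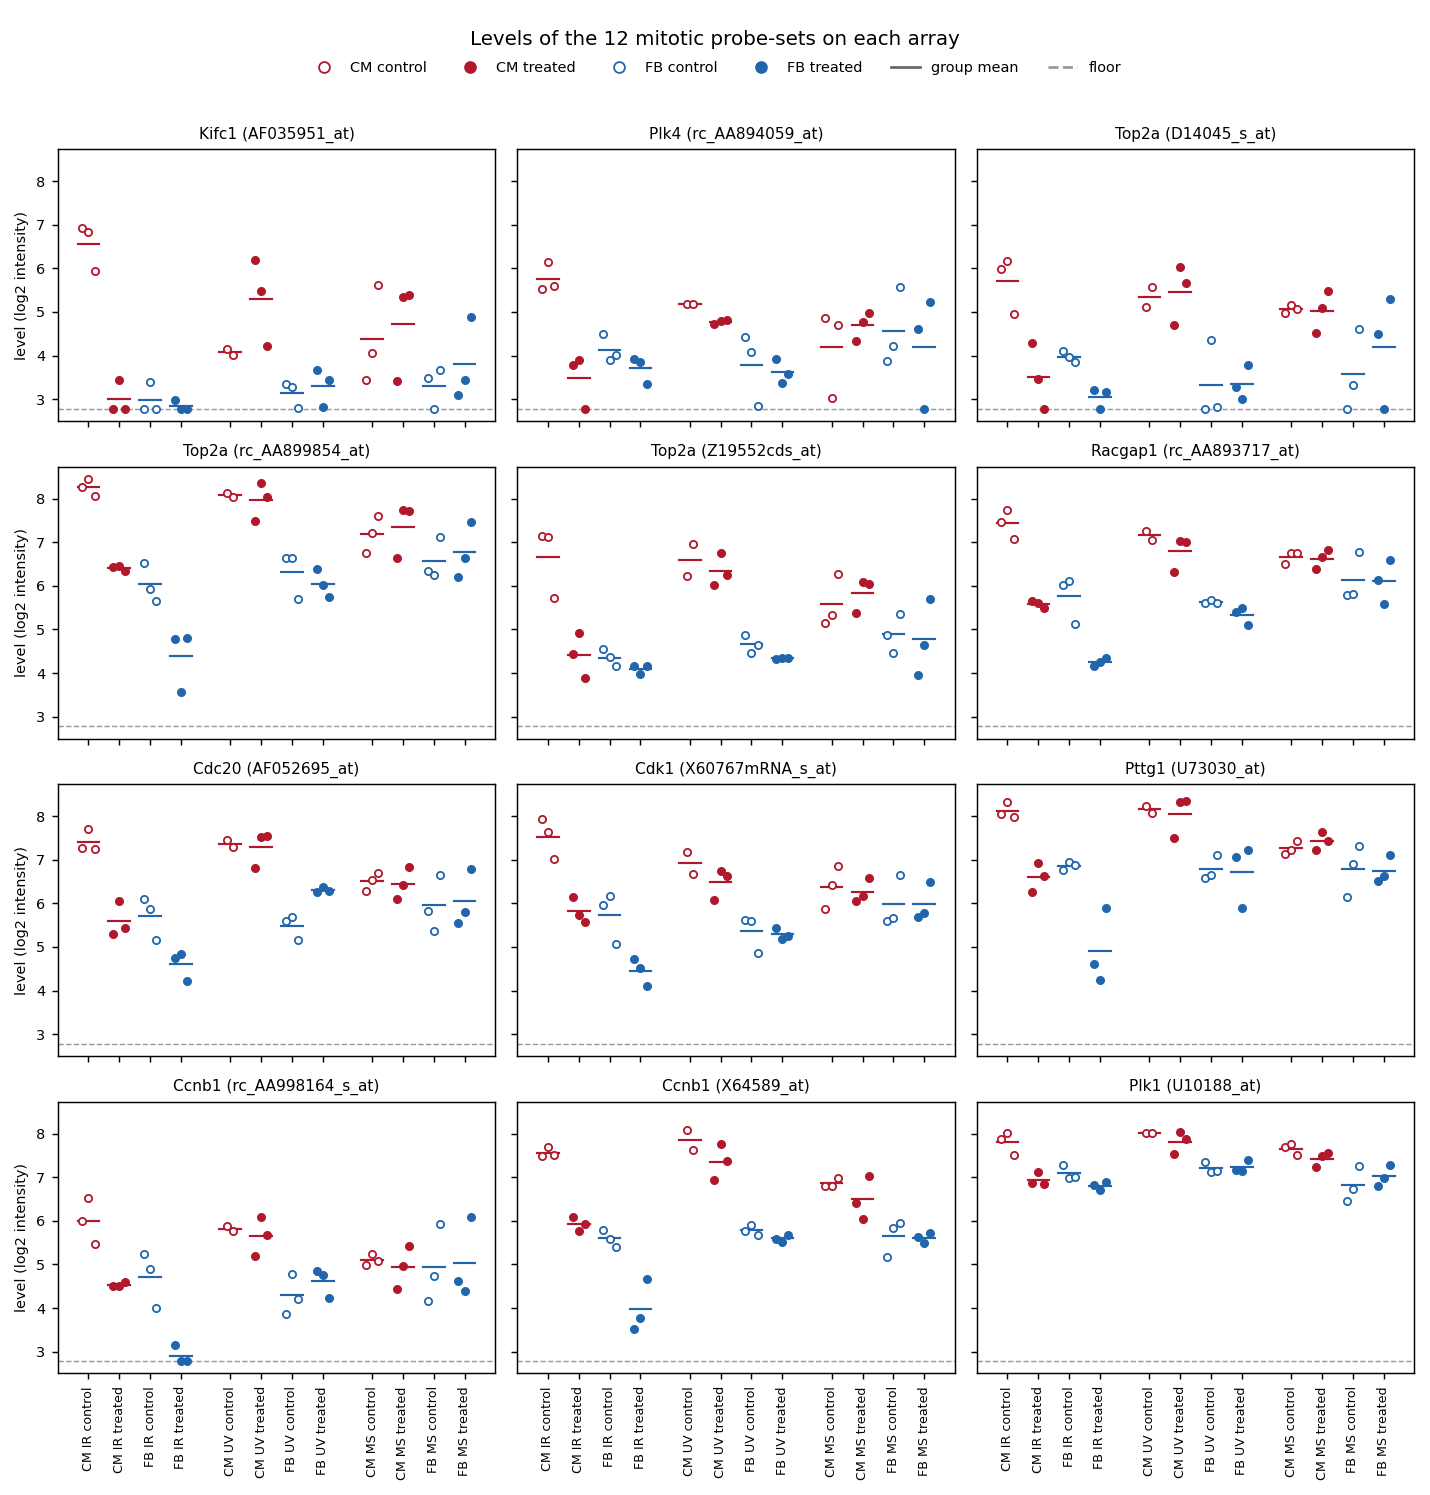
Level (log2 intensity) of each of the 12 probe-sets on every array, by population, stressor and treatment; open circles are controls, filled circles treated arrays, bars group means and the dashed line the floor at 2.78. CM control arrays of IR lie above the CM arrays after IR in every panel, and treated and control arrays of MS overlap in every panel.

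The change was present in each of the 3 pairs of CM arrays, with medians over the members of -1.79, -2.00 and -1.65, and 12 of 12 probe-sets below 0 in each. In pairs 1 and 3 the treated and control arrays came from different array lots, and in pair 2 from the same lot. In pair 3 they were also scanned on different days. With the scan as an added block the median was -1.88, which rests on pairs 1 and 2. With the lot as an added block the median was -2.00, a value that rests on pair 2 alone. In FB the pair medians were -1.28, -1.42 and -0.77, with 11, 12 and 11 of 12 probe-sets below 0. Among CM arrays of the IR experiments, the summed cardiomyocyte genes were 60166 to 66683 in controls and 53792 to 65810 after IR. The summed fibroblast genes were 24154 to 30126 in controls and 28886 to 31973 after IR, and the summed endothelial genes 733 to 2213 and 496 to 2200. The part of these shifts in the members' changes was not tested.

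Kifc1 (AF035951_at) encodes a minus-end-directed kinesin that helps to focus spindle poles. Its level in CM was 6.92, 6.84 and 5.93 in the IR controls and 2.78, 3.44 and 2.78 after IR, so that treated arrays 1 and 3 lay at the floor. The fitted change over 3 pairs was -3.56 (SE 0.35, from the fit of all arrays), or 11.8-fold lower. Since treated arrays were at the floor, the size of the change depends on where the floor is set. In FB, Kifc1 was 2.78, 3.39 and 2.78 in controls and 2.98, 2.78 and 2.78 after IR, so it was at or near the floor whether or not the cells were irradiated, and a fall could hardly be measured there. Among CM control arrays, those of IR were the brightest for Kifc1, since the CM controls of UV read 4.16 and 4.02 and those of MS 3.44, 4.07 and 5.61. With 2 of 3 control and 2 of 3 treated FB arrays at the floor, the change of Kifc1 in FB and its difference from that in CM were not resolved.

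Top2a encodes topoisomerase II alpha, which untangles sister DNA before chromosomes separate, and its 3 probe-sets can be set side by side. In CM their changes after IR were close to each other, at -2.19 (SE 0.44) for D14045_s_at, -1.85 (SE 0.25) for rc_AA899854_at and -2.24 (SE 0.25) for Z19552cds_at. In FB they were not: rc_AA899854_at changed by -1.65 (SE 0.25), D14045_s_at by -0.93 (SE 0.44) and Z19552cds_at by -0.26 (SE 0.25). For rc_AA899854_at the FB levels were 6.52, 5.92 and 5.65 in controls and 4.77, 3.56 and 4.81 after IR. For Z19552cds_at they were 4.54, 4.36 and 4.16 in controls and 4.15, 3.98 and 4.15 after IR. The control arrays of both probe-sets lay above the treated ones, but by unequal amounts. In CM, Z19552cds_at went from 7.14, 7.12 and 5.71 to 4.44, 4.93 and 3.89, levels around those of the FB controls. Over the 17 pairs, the changes of the Top2a probe-sets correlated at 0.76 (D14045_s_at with rc_AA899854_at), 0.69 (rc_AA899854_at with Z19552cds_at) and 0.55 (D14045_s_at with Z19552cds_at), given here as a description because pairs of all stressors are pooled.

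**Figure D3:**
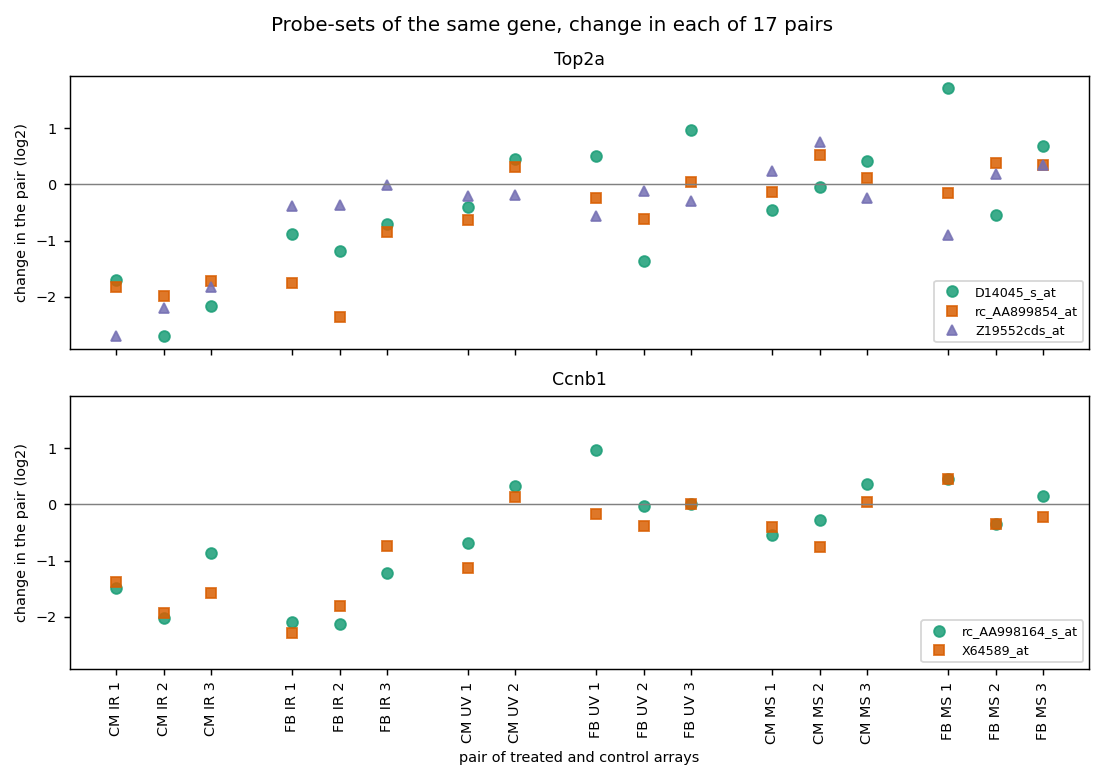
Change (log2, treated minus control) in each of 17 pairs for the 3 probe-sets of Top2a (upper panel) and the 2 of Ccnb1 (lower panel). The Top2a probe-sets spread apart in FB after IR, where rc_AA899854_at changed by -1.75 and Z19552cds_at by -0.39 in pair 1. In the same pair the Ccnb1 probe-sets changed by -2.09 and -2.28, and in pair 3 of CM after IR they were farther apart, at -0.87 and -1.58.

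For Ccnb1, both probe-sets had changes below -1 in both populations. After IR, X64589_at changed by -1.63 (SE 0.29) in CM and -1.61 in FB, and rc_AA998164_s_at by -1.46 (SE 0.30) in CM and -1.81 in FB. For X64589_at the CM levels were 7.48, 7.70 and 7.51 in controls and 6.10, 5.77 and 5.92 after IR. The FB levels were 5.80, 5.59 and 5.40 in controls and 3.51, 3.78 and 4.66 after IR. In neither population did treated and control arrays overlap, and the correlation of the probe-sets over the 17 pairs was 0.91. For rc_AA998164_s_at, FB arrays 2 and 3 after IR lay at the floor, so that the change there may be larger than measured.

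Cdk1 (X60767mRNA_s_at), the kinase partner of cyclin B1, read 7.94, 7.63 and 7.02 in CM controls and 6.16, 5.73 and 5.57 after IR. In FB it read 5.96, 6.16 and 5.07 in controls and 4.73, 4.52 and 4.11 after IR. The changes were -1.72 (SE 0.21) and -1.27 (SE 0.21). Of the other kinases, Plk1 (U10188_at), which acts from mitotic entry to cytokinesis, had the smallest change in CM, -0.86 (SE 0.12) or 1.82-fold, from 7.89, 8.02 and 7.51 to 6.87, 7.12 and 6.85. In FB it read 7.28, 6.99 and 7.01 in controls and 6.82, 6.71 and 6.89 after IR, a change of -0.29. Plk4 (rc_AA894059_at), which starts centriole duplication, changed by -2.27 (SE 0.45) in CM and by -0.43 (SE 0.45) in FB. Its CM levels went from 5.53, 6.14 and 5.59 to 3.79, 3.89 and 2.78, whereas FB controls of 4.49, 3.90 and 4.02 overlapped treated FB arrays of 3.91, 3.86 and 3.36.

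An activator and a substrate of the anaphase-promoting complex were also lower in both populations after IR. Pttg1 (U73030_at), the securin that holds separase inactive, read 8.06, 8.32 and 7.98 in CM controls and 6.27, 6.92 and 6.63 after IR. In FB it read 6.76, 6.95 and 6.89 in controls and 4.62, 4.24 and 5.89 after IR, a change of -1.95 (SE 0.30) or 3.87-fold, the lowest of the 12 in FB. Pttg1 and Ccnb1 rc_AA998164_s_at were the 2 probe-sets with the lower value in FB (differences of 0.44 and 0.35, CM minus FB). Cdc20 (AF052695_at) changed by -1.82 (SE 0.17) in CM, from 7.27, 7.71 and 7.24 to 5.29, 6.04 and 5.43, and by -1.11 (SE 0.17) in FB, from 6.09, 5.86 and 5.17 to 4.75, 4.85 and 4.21. Racgap1 (rc_AA893717_at), a subunit of centralspindlin that positions the cleavage furrow, changed by -1.85 (SE 0.22) in CM, from 7.47, 7.75 and 7.08 to 5.65, 5.61 and 5.50. In FB it changed by -1.51 (SE 0.22), from 6.03, 6.12 and 5.13 to 4.17, 4.26 and 4.33.

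**Figure D4:**
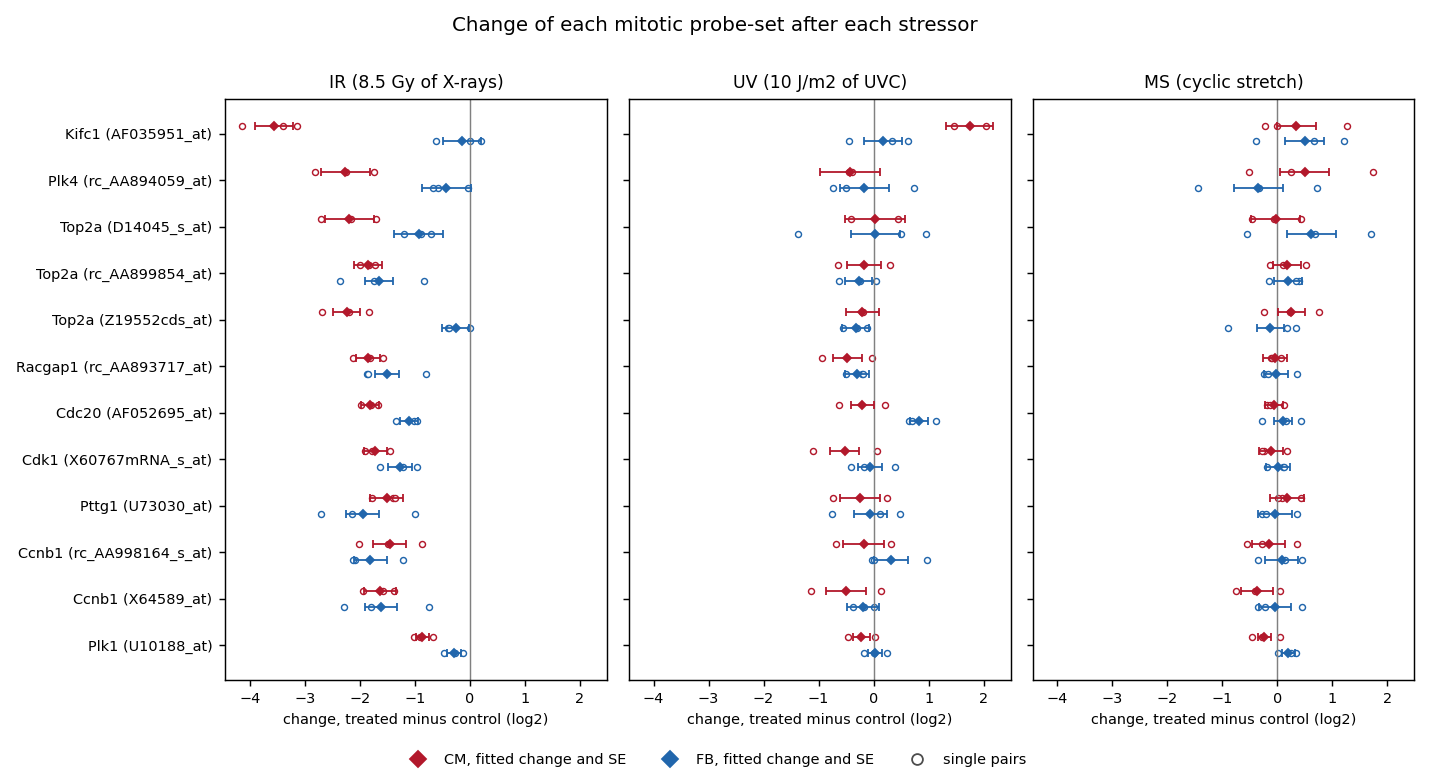
Change of each probe-set (log2, treated minus control) after IR, UV and MS; diamonds are fitted changes with their SE, open circles single pairs, red CM and blue FB. All fitted changes after IR lie below 0 and reach -3.56. Fitted changes after UV and MS lie around 0 except for Kifc1 in CM and Cdc20 in FB after UV. Single pairs spread more widely, as for Kifc1 in FB after IR (0.20 in pair 1) and Plk4 in CM after MS (1.73 in pair 2).

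After UV, in CM-enriched fractions, 1 of 12 member probe-sets was called higher and none lower, against 8.62% higher and 8.16% lower of all 8740 probe-sets. In FB, 1 of 12 was called higher and none lower, against 11.7% and 11.2% of all. These counts of members were near the shares over all probe-sets. The member called in CM was Kifc1 and the member called in FB was Cdc20. The median over the 12 probe-sets was -0.22 in CM and -0.06 in FB. The 95% interval held no fall as large as 1 log2 unit for 6 of the 12 in CM (the exceptions being Plk4, Top2a D14045_s_at, Racgap1, Cdk1, Pttg1 and Ccnb1 X64589_at) and for 11 of the 12 in FB (the exception being Plk4). The CM interval thus left room for moderate falls of several members, with only 2 pairs.

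Kifc1 after UV read 4.16 and 4.02 in CM controls and 6.20, 5.48 and 4.23 on treated arrays, of which the last has no control of its number and did not enter the fitted change. The change was 1.75 (SE 0.43, 95% interval 0.82 to 2.68), 3.36-fold, higher in 2 of 2 pairs (adjusted p = 0.0147, limma). With treated array 3 used through a random block, the change was 1.39 and the adjusted p 0.0656. With experiment 1 left out of every group the change was 1.46 (adjusted p = 0.247), and with experiment 2 left out it was 2.05 (adjusted p = 0.0744). Each of these fits rests on 1 CM pair, which is assumed to vary like the other groups, so the lost call says little about the size of the change. Without the block the change was 1.21 (adjusted p = 0.265). In FB, Kifc1 read 3.35, 3.28 and 2.80 in controls and 3.67, 2.83 and 3.44 after UV, which overlap (change 0.17, SE 0.35, adjusted p = 0.879). The difference between populations, 1.58 (SE 0.55), did not pass (adjusted p = 0.128, unadjusted p = 0.0143, limma). Among CM arrays of the UV experiments, summed cardiomyocyte genes were 67117 to 71488 in controls and 55309 to 59286 after UV, and summed fibroblast genes 18290 to 25005 and 14586 to 19893. Their part in the change of Kifc1 was not tested.

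Cdc20 read 5.60, 5.69 and 5.15 in FB controls and 6.25, 6.39 and 6.28 after UV, with no overlap and a rise in 3 of 3 pairs (0.65, 0.70 and 1.13). The change was 0.83 (SE 0.17, 95% interval 0.46 to 1.19), 1.77-fold (adjusted p = 0.00293, limma). With experiment 3 left out it was 0.67 (adjusted p = 0.121), and without the block it was again 0.83 (adjusted p = 0.103). In CM, Cdc20 read 7.44 and 7.30 in controls and 6.82, 7.51 and 7.55 after UV, and the pairs differed in sign (-0.63 and 0.21). The difference between the populations was tested directly and was called, at -1.03 (SE 0.27, 95% interval -1.61 to -0.46, adjusted p = 0.0392, limma), CM minus FB. It was the only one of the 12 so called, against 3.63% higher and 2.72% lower of all probe-sets. The call was lost under 9 of 11 other settings, with values of -1.53 to -0.70 over the 11, among them each of those that left out 1 numbered experiment (adjusted p = 0.268 without experiment 1, 0.0636 without experiment 2 and 0.246 without experiment 3). The summed cardiomyocyte genes on the FB arrays were 21587 to 25294 in UV controls and 9062 to 12799 after UV, and their part in the Cdc20 change was not tested. After IR the same probe-set was lower in all 3 FB pairs, at -1.34, -1.02 and -0.96.

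The CM pairs of UV did not move alike. In pair 1, 11 of 12 probe-sets were below 0 with a median of -0.63, and in pair 2, 3 of 12 were below 0 with a median of 0.17. The deposited intensities of the pairs were on different scales. Their trimmed means were 200.4 (control) and 200.3 (treated) in pair 1, and 1001.7 on both arrays of pair 2. The part of this in the disagreement was not tested. Cdk1 changed by -1.11 in pair 1 and 0.07 in pair 2, giving -0.52 (SE 0.26, adjusted p = 0.222, limma). Ccnb1 X64589_at changed by -1.14 and 0.13, giving -0.50 (SE 0.36, adjusted p = 0.416). Racgap1 changed by -0.94 and -0.02, giving -0.48 (SE 0.27, adjusted p = 0.273). None of these passed the test, and the pairs disagreed by more than the mean change. In FB the pair medians were -0.18, -0.40 and 0.18. In CM, treated arrays lay wholly below the controls for 2 of 12 probe-sets, Racgap1 and Plk4 (adjusted p = 0.273 and 0.737, limma), against 15.3% of all probe-sets, and wholly above for 1, Kifc1, against 16.6%. In FB they lay wholly below for 2, Racgap1 and Top2a Z19552cds_at (adjusted p = 0.409 and 0.438), against 13.9%, and wholly above for 1, Cdc20, against 15.9%. These counts of members were near the shares over all probe-sets.

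After MS, none of the 12 probe-sets was called in CM or FB or for the difference between them, and the same was true of all 8740 probe-sets (0% in each comparison, limma). At an unadjusted p of 0.05, 0 of 12 passed in CM and 0 of 12 in FB, against 414 and 468 of all probe-sets, and 1 of 12 passed for the difference, against 365. That 1 was Plk1, at -0.44 (SE 0.17, unadjusted p = 0.0276, adjusted p = 1). Changes ran from -0.37 to 0.49 in CM (median -0.04) and from -0.35 to 0.62 in FB (median 0.04). The 95% interval held no fall of 1 log2 unit for 11 of 12 probe-sets in each population, the exceptions being Ccnb1 X64589_at in CM and Plk4 in FB. For Pttg1, CM read 7.14, 7.22 and 7.42 in controls and 7.22, 7.65 and 7.44 after MS, and FB read 6.15, 6.90 and 7.32 and 6.51, 6.63 and 7.12. The treated and control arrays overlapped for all 12 probe-sets in both populations, and of all probe-sets 7.01% in CM and 5.15% in FB did not overlap, so that the count of 0 is near the share over all probe-sets.

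Single pairs varied most after MS for the probe-sets with the largest SE of the change, Plk4 (0.45), Top2a D14045_s_at (0.44) and Kifc1 (0.35). The SE comes from the fit of all arrays, these pairs among them, so it is not a spread of MS alone. Plk4 in CM changed by -0.51, 1.73 and 0.26 in the 3 pairs, and in FB by 0.73, -1.45 and -0.34. Kifc1 changed by -0.01, 1.27 and -0.22 in CM and by -0.39, 0.66 and 1.22 in FB. Racgap1, with an SE of 0.22, changed by -0.11, -0.10 and 0.07 in CM and by 0.35, -0.24 and -0.16 in FB. The smallest SE was that of Plk1 (0.12).

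Control cells differed between the populations in the members' levels. The choice by changes after IR can favour genes with a high control level in CM, so the counts below are no independent test. In the UV experiments, 10 of 12 probe-sets were called higher in CM than in FB and none lower, against 11.2% higher and 11.9% lower of all probe-sets. The differences ran from 0.80 (Plk1) to 2.08 (Ccnb1 X64589_at), with a median of 1.55, and Kifc1 (0.95, adjusted p = 0.325) and Plk4 (1.39, adjusted p = 0.0983) did not pass. Ccnb1 X64589_at read 8.08 and 7.63 in CM controls and 5.77, 5.90 and 5.68 in FB controls (SE 0.28, adjusted p = 6.58e-06, limma). Cdc20, at 7.44 and 7.30 against 5.60, 5.69 and 5.15, differed by 1.89 (SE 0.36, adjusted p = 3.42e-04). For Ccnb1 X64589_at and Cdc20, all CM control arrays of UV lay above all FB control arrays. The share of all probe-sets separated in this way was not counted, so nothing is read from it. Leaving out 1 experiment gave 5 (without experiment 1) or 3 (without experiment 2) called.

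In the MS experiments, whose CM-enriched cultures were not elutriated, 3 of 12 were called higher in CM controls and none lower, against 10.5% higher and 12.8% lower of all probe-sets. They were Plk1 (0.84, SE 0.17, adjusted p = 8.19e-04), Ccnb1 X64589_at (1.21, SE 0.25, adjusted p = 0.00113) and Top2a D14045_s_at (1.49, SE 0.55, adjusted p = 0.0498), by limma. For Top2a D14045_s_at, FB control 1 lay at the floor. With the floor at the 40th percentile its difference was 0.45 (adjusted p = 0.289, limma). The Top2a probe-sets rc_AA899854_at (0.62, adjusted p = 0.267) and Z19552cds_at (0.69, adjusted p = 0.236) were not called. Plk1 read 7.69, 7.77 and 7.51 in CM and 6.46, 6.73 and 7.27 in FB. Without experiment 1 none was called, and without experiment 2 only Ccnb1 X64589_at was. The median difference was 0.59, with 11 of 12 above 0. In the IR controls, as a description, the differences were 0.72 (Plk1) to 3.58 (Kifc1, a bound since FB controls 1 and 3 were at the floor), with a median of 1.71. Thus in the UV and MS controls the median was above 0. It was lower in the MS cultures, which were not elutriated and were grown on collagen-coated plates. Elutriation, culture surface and experiment cannot be told apart here. The IR controls entered the choice of the members, so their median is no further support. Over the same controls, summed fibroblast genes in CM were 18290 to 25005 (UV), 24154 to 30126 (IR) and 42235 to 43426 (MS). Arrays of the 2 populations come from separate experiments, so population, culture age and experiment cannot be told apart.

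**Figure D5:**
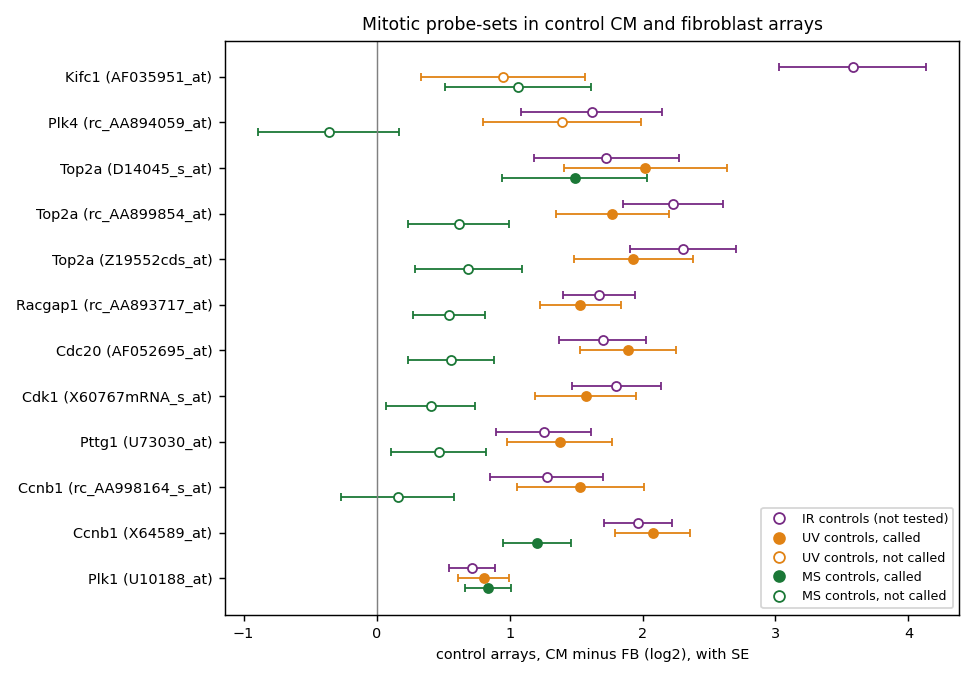
Difference in level between CM and FB control arrays (log2, with SE) for each probe-set in the IR (purple, not tested), UV (orange) and MS (green) experiments; filled points were called. UV controls lie between 0.80 and 2.08 and MS controls mostly below them, with Plk4 at -0.36.

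Over the 66 pairs of member probe-sets the median correlation was 0.74 (0.40 to 0.94). Without the IR pairs, over the other 11, the correlation of Kifc1 with the members' mean was 0.01 (0.82 over all 17) and that of Top2a Z19552cds_at was 0.03 (0.78), while Pttg1 kept 0.79 and Top2a rc_AA899854_at 0.75. The mean was over the brightest probe-set of each gene, so it holds Kifc1, Pttg1 and rc_AA899854_at themselves but not Z19552cds_at. The values of the Top2a probe-sets are thus not on a like footing. Values over all 17 pairs also rest on the IR pairs, which chose the members. These points share pairs and arrays and are given without a p. Among 6994 probe-sets of other genes, those whose changes were most like the mean of the members over the 17 pairs were Fam111a (r = 0.95), Stmn1 (0.93), Mcm6 (0.88), Mcm5 (0.86) and Hmmr (0.86). After IR in CM they changed by -2.25, -1.53, -1.39, -1.20 and -1.56. After UV in FB they changed, in the same order, by 0.73, 0.22, 1.23, 0.66 and -0.16, beside the members' median of -0.06.

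Other genes of mitosis were taken from a list of 88, of which 26 were on the array (32 probe-sets). After IR in CM the median was -0.29, and 0.446% of all probe-sets were called lower and 0.286% higher. Of the 32, 4 were called lower and none higher. These were Stmn1, which destabilises microtubules (-1.53, SE 0.24, adjusted p = 0.0102), Bub1b, a checkpoint kinase (-1.50, SE 0.24, adjusted p = 0.0110), Kif2c, a microtubule-depolymerising kinesin (-1.62, SE 0.28, adjusted p = 0.0198), and Hmmr, a spindle-associated protein (-1.56, SE 0.27, adjusted p = 0.0198), by limma. A second probe-set of Bub1b gave 0.35 (SE 0.46), so the probe-sets of that gene disagree. Stmn1 and Hmmr were also named above as most like the members, over pairs that include those of IR. Their calls are thus no separate support. In FB none of the 32 was called after IR (median -0.05), against 0.0458% lower and 0.0343% higher of all probe-sets. After UV, 2 were called higher and 2 lower in CM, near the shares of 8.62% and 8.16% over all probe-sets. In FB, 6 were called higher and 1 lower, against 11.7% and 11.2%. Those in CM were Cdk7, the Cdk-activating kinase (1.01, adjusted p = 0.0166), Cdc5l, a splicing factor (0.82, adjusted p = 0.0171), and the tubulins Tubb5 (-0.69, adjusted p = 0.00214) and Tuba1b (-0.34, adjusted p = 0.0339). In FB the smallest adjusted p were those of Cdc5l (1.21, adjusted p = 1.86e-04), the cohesin subunit Smc3 (0.93, adjusted p = 0.00149), Tubb5 through another probe-set (-0.86, adjusted p = 0.00346) and Tubg1, gamma-tubulin (0.64, adjusted p = 0.00597). After MS none of the 32 was called in either population, and none of all 8740 probe-sets was.

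Genes of DNA replication and of p53-dependent arrest were counted in the same way. Of all probe-sets, 0.286% were called higher and 0.446% lower after IR in CM, and 0.0343% and 0.0458% in FB. After UV these shares were 8.62% and 8.16% in CM and 11.7% and 11.2% in FB. Of 28 probe-sets of 18 DNA replication genes, 4 were called lower and none higher after IR in CM (median -0.52) and none in FB (median -0.19). After UV, 6 were called higher and 2 lower in CM (median 0.36), and 11 higher and 4 lower in FB (median 0.47). Of 12 probe-sets of 5 genes of p53-dependent arrest, 3 were called higher after IR in CM, 1 in FB, 6 after UV in CM and 5 after UV in FB, and none lower in any of these. Cdkn1a, the inhibitor of cyclin-dependent kinases (p21), rose by 1.73 after IR in CM (SE 0.23, adjusted p = 0.00247) and by 2.28 and 3.20 after UV in CM and FB (SE 0.28 and 0.23, adjusted p = 1.67e-04 and 8.29e-07, limma, probe-set U24174_at). In FB after IR this probe-set changed by 1.18 (SE 0.23, adjusted p = 0.0863). Beside these values, the medians of the members after UV were -0.22 and -0.06. No probe-set of either list was called after MS, and none of all 8740 was.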

How the data were processed

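RNA of 35 samples was hybridised to RG-U34A arrays. The table the authors deposited holds an untransformed intensity per array for 8799 probe-sets. Their methods (gcrma background correction, then VSN and linear modelling at probe level) do not yield such intensities, and the software that made them is not given in the sources used here. From the values, 26 arrays were scaled to a trimmed mean of 200.3 to 200.4 and 9 to 1001.5 to 1001.7 (all CM arrays of IR, and CM control 2 and treated 2 and 3 of UV). Each array was rescaled to a common 75th percentile, floored at 6.88 (the 20th percentile over all arrays), log2 transformed and quantile normalised. Between 14.5% and 24.7% of an array's values lay at the floor. After 59 control probe-sets were left out, 8740 were tested, and the number of arrays per group limits the precision.

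A single limma fit (version 3.58.1, R 4.3.3) covered all arrays, with lmFit and eBayes (trended prior, two-sided) and the numbered experiment within population and stressor as a block, as the authors' model has a term for the experiment (11 residual degrees of freedom). Control levels were fitted as group means without a block. P values were adjusted by Benjamini-Hochberg over 8740 probe-sets, and 0.05 was the threshold. Numbers come from the sample titles, titles lacking a number were read as 1, and within the 17 pairs the correlation of deviations from group means was 0.06 to 0.80 and over 0.1 in 15. Where labels do not say that samples are separate cultures, p values measure the spread between these samples. Scan records of 16 arrays were read for scan and lot only.

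Genes named are all members, the 5 probe-sets most like them, and at most 4 called genes of a list per comparison, with markers and p53 genes where a result turns on them. The members, lists and alternatives were chosen with earlier results of these data known. The pipeline was tested on simulated data. Alternatives were no block, a random block (statmod 1.5.0), other floors, pseudocount and scaling, and a filter on dim probe-sets. Others were the scan or the array lot as a block, and leaving out each numbered experiment.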

Additional observations from a re-analysis of the deposited data

Results flagged for a closer look

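The change of Cdc20 after UV differed between the populations in the fit's own test of the difference, at -1.03 on the log2 scale (CM minus FB, adjusted p = 0.0392, limma). The call was lost under 9 of 11 other settings. The CM pairs changed by -0.63 and 0.21, and the FB pairs by 0.65, 0.70 and 1.13.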

How the results depend on the processing

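The median change of the 12 probe-sets after IR kept its direction under all 11 other settings in both populations. This is a description, since these values chose the members. Leaving out the block or making it random could not move the median, as all IR pairs are complete. In FB the scan and lot blocks could not move it either. Leaving out 1 numbered experiment gave -1.87 to -1.75 in CM and -1.30 to -1.13 in FB, and a floor at the 40th percentile gave -0.63 in FB. Without the replicate block, the pairing of treated and control arrays is not used, and 0 probe-sets were called after UV in CM, 0 in FB and 0 for the difference between them (adjusted p of Kifc1 0.265, of Cdc20 0.103 and 0.531). With the pairs as a random block, 0 were called in CM (Kifc1, 0.0656) and 0 for the difference (Cdc20, 0.180). The difference also lost its 1 call (0 called) with a pseudocount in place of the floor (Cdc20 -0.93, adjusted p 0.0513), with scaling alone (-0.89, 0.0574) and with the array lot as a block (-1.03 as before, 0.0515), and the call was Kifc1 and not Cdc20 with the floor at the 40th percentile. Leaving out 1 numbered experiment gave 0 to 1 calls after UV in CM, 0 to 1 in FB, 0 to 0 for the difference, 0 to 4 in MS controls and 3 to 9 in UV controls. Scaling alone gave 5 in MS controls. After MS, 0 were called in every setting. No called value changed sign in any setting, but of those not called Kifc1 in FB after UV was -0.06 without experiment 3, and Cdc20 in CM after UV was 0.21 without experiment 1. The cause of these shifts was not tested. Kifc1 lay at the floor on 7 arrays and Top2a D14045_s_at on 5, which limits their changes to bounds there. The low number of pairs limits the UV comparison of CM most, with 2 pairs.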
